A study of Mus musculus with 16 samples.

Results

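Genes of melanin synthesis and the pigment epithelium, 10 in all, were followed through 15 mouse retina libraries. They were chosen by symbol: Pmel, Tyr, Tyrp1, Dct, Oca2, Mlana, Gpr143, Slc45a2, Rpe65 and Mitf. All 10 had a row in the GFP table, and 8 had a row in each of the 3 tables, among 20278 genes listed in any table and 19495 listed in all 3. Mlana and Gpr143 had a row only in the GFP table and were analysed there alone.

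All mice were C57BL/6, a pigmented strain, at around 6 weeks of age, and whole retinas were dissected, homogenized and sequenced. In 4 HDAC5AA retinas, 4 HDAC5DAD retinas and the GFP retinas, an adeno-associated virus (AAV2) carrying HDAC5AA, HDAC5DAD or GFP had been placed in the vitreous. The optic nerve of these eyes was crushed 2 weeks later, for 3 seconds about 1 mm behind the optic disc, and retinas were taken after another 4 days. Uninjured retinas (4 libraries) had no crush, and no virus is named for them. GFP retinas gave 3 libraries here, replicates 2 to 4. HDAC5 is a histone deacetylase that shuttles between nucleus and cytoplasm; HDAC5AA and HDAC5DAD are altered forms of it, and the labels do not say what the letters stand for or which promoter drives them. The study asked which retinal genes respond to the 2 forms after axon injury. Whether replicates are separate animals is not stated in the labels; p-values therefore reflect library-to-library spread only, part of which may be technical.

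Melanin is made inside melanosomes by the enzymes tyrosinase, TYRP1 and DCT on a fibrillar scaffold of PMEL, with OCA2, SLC45A2 and GPR143 controlling ion balance, pH and organelle size. In the eye the pigment is held by the retinal pigment epithelium behind the photoreceptors and by melanocytes of the choroid and iris; the neural retina itself makes none. RPE65 is the isomerase of the visual cycle and is specific to the pigment epithelium, which lies outside the neural retina and is usually left behind when a retina is peeled out. MITF is the basic helix-loop-helix factor of pigment cells, which binds CATGTG in the promoters of tyrosinase-family genes, but its gene has several promoters and some of its forms are made outside pigment cells.

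RefSeq promoters on build GRCm38.p6, running from 250 bases before each start to 50 after it, were matched by symbol for 6 of the 10 genes. The 3 tyrosinase-family promoters, from which the longer motif below was taken, are shown first. The bases before the start are printed in the sense of the gene, and capitals mark CATGTG or its reverse complement CACATG. The windows cover chr7:87493513-87493762 on the minus strand for Tyr, chr4:80833963-80834212 on the plus strand for Tyrp1 and chr14:118052247-118052496 on the minus strand for Dct.
Tyr: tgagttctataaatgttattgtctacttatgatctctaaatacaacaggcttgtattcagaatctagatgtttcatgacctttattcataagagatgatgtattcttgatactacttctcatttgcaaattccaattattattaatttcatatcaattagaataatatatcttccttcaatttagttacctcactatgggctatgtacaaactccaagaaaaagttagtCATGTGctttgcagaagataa
Tyrp1: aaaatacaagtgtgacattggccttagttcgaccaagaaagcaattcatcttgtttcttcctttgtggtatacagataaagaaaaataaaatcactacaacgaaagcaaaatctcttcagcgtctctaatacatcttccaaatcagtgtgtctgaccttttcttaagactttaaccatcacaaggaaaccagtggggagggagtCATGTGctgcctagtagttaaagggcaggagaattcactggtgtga
Dct: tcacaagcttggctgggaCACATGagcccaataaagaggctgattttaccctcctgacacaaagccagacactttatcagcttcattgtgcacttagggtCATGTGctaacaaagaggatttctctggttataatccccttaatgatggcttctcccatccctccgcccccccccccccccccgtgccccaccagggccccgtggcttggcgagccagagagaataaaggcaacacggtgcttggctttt

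Tyr held 1 match, starting 21 bases before the start site, and Tyrp1 held 1 match, at 46 bases. Dct held 2 matches, a reverse-strand one at 232 bases and a forward one at 150 bases. The longest run that all 3 promoters share around the motif, GTCATGTGCT, is the core of the M-box known from these genes. Since it was read from these 3 promoters, their sharing it is given by construction. With both strands searched, it was found in 61 of 32851 RefSeq promoters of the same length (0.186%), these 3 included. The shorter CATGTG, which the longer form contains, was found in 4650 of the 32851 promoters (14.2%). Single reverse-strand matches were also found 186 bases before Oca2 (promoter chr7:56239509-56239808, plus strand) and 239 bases before Rpe65 (promoter chr3:159598931-159599230, plus strand). They are printed with the bases around them to show that neither has the flanks of the longer form.
Oca2: gagcttgctaCACATGgctggaattt
Rpe65: atggcaggccCACATGgctctttttt

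Mitf was listed with 3 promoters, and CATGTG was not in any of these windows. A match describes the letters and does not show binding.

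Depth ran from 10939457 reads in HDAC5AA replicate 4 to 30970658 reads in Uninjured replicate 3, over genes listed in all tables. Ribosomal RNA genes took 0.0212% to 9.87% of reads and 1% or more in all 3 GFP libraries, in replicates 3 and 4 of HDAC5AA, in replicates 1 and 4 of HDAC5DAD and in replicates 1 and 4 of Uninjured. Rod genes, the defining markers of retina, summed to between 60440 and 73167 RPM (reads scaled to library depth) in every library. The deposited values are counts divided by a size factor and are called normalized reads below; levels are given on 1 scale for all 15 libraries, and tests against Uninjured were run within each deposited table. In whole tissue, fewer pigment cells and less RNA per pigment cell cannot be told apart.

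The pigment genes were rare transcripts in these retinas. As RPKM (RPM divided by exon length in kilobases), Uninjured retinas had 2.47 ± 1.75 for Rpe65, 1.66 ± 0.190 for Mitf, 0.962 ± 0.186 for Pmel, 0.827 ± 0.388 for Dct and 0.613 ± 0.219 for Tyrp1 (SD, n = 4). On the same scale Oca2 had 0.279 ± 0.229, Tyr 0.171 ± 0.0833, Gpr143 0.111 ± 0.143, Slc45a2 0.10 ± 0.027 and Mlana 0.0582 ± 0.0471. Over all libraries Dct had 1820 reads, Rpe65 1260, Pmel 772, Tyrp1 623, Tyr 345 and Oca2 264, while Slc45a2 had 87 in 15 libraries, and Gpr143 had 39 and Mlana 37 in 7 libraries. Counting error is therefore large for the last 3 genes.

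Pmel encodes the amyloid-forming scaffold protein on which melanin is laid down; its gene lies at chr10:128704195-128720238 (mm10, GENCODE M21, plus strand). It had 10.1, 26.8, 25.9 and 13.6 normalized reads in the HDAC5AA libraries, 58.4, 52.2, 19.98 and 24.6 in the HDAC5DAD libraries, 68.7, 234 and 34.5 in the GFP libraries, and 44.9, 41.8, 52.1 and 33.2 in the Uninjured libraries. Every HDAC5AA library was below every Uninjured library and below every GFP library, whereas HDAC5DAD libraries lay on both sides of the Uninjured ones. The values of HDAC5AA replicates 1 to 4 rest on 11, 34, 21 and 7 reads. GFP replicate 3 stood far above all other libraries. Exons of Pmel share 139 bases with exons of the neighbouring genes Cdk2 and Dgka, and whether counting used strand is not given in the sources used here.

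Tyr encodes tyrosinase, the enzyme that starts melanin synthesis (chr7:87424771-87493512, minus strand). It had 9.14, 11.8, 14.8 and 1.95 normalized reads in HDAC5AA, 25.6, 39.5, 13.9 and 11.3 in HDAC5DAD, 20.7, 65.8 and 21.6 in GFP, and 29.9, 13.4, 14.7 and 37.3 in Uninjured libraries. HDAC5AA overlapped Uninjured through replicate 3 alone, which was above 2 of the Uninjured libraries, and its replicate 4 rests on 1 read.

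Tyrp1 encodes the related oxidase that stabilizes tyrosinase (chr4:80834123-80851719, plus strand). It had 17.4, 22.9, 22.2 and 21.4 normalized reads in HDAC5AA, 29.9, 56.0, 25.2 and 16.4 in HDAC5DAD, 43.9, 188 and 26.9 in GFP, and 34.5, 25.1, 25.1 and 50.8 in Uninjured libraries. HDAC5AA libraries lay close together and below all Uninjured and GFP libraries, and the HDAC5DAD libraries spanned both.

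Dct encodes dopachrome tautomerase, the third enzyme of the family (chr14:118012790-118052244, minus strand). It had 40.2, 48.2, 72.8 and 29.2 normalized reads in HDAC5AA, 95.4, 128, 56.5 and 69.6 in HDAC5DAD, 121, 612 and 139 in GFP, and 97.9, 54.3, 72.3 and 157 in Uninjured libraries. GFP libraries were all above the HDAC5AA ones, and GFP replicates 2 and 4 lay between the second highest and the highest Uninjured library.

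Oca2 encodes a melanosomal anion transport protein (chr7:56239760-56536518, plus strand). It had 10.1, 9.47, 3.70 and 3.89 normalized reads in HDAC5AA, 9.96, 26.1, 14.8 and 5.12 in HDAC5DAD, 6.62, 56.3 and 23.7 in GFP, and 20.7, 12.5, 6.74 and 46.7 in Uninjured libraries. The groups overlapped, and the lowest values, in HDAC5AA replicates 3 and 4, rest on 3 and 2 reads.

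Slc45a2, a melanosomal transporter gene, had group means of 5.86 ± 3.07 normalized reads in HDAC5AA (SD, n = 4), 6.47 ± 6.64 in HDAC5DAD (n = 4), 6.35 ± 4.64 in GFP (n = 3) and 5.84 ± 1.71 in Uninjured retinas (n = 4). Its groups overlapped throughout, with 1 to 11 reads per library, and its highest library was HDAC5DAD replicate 1.

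Mlana, a melanosome protein gene used as a melanocyte marker, had 5, 24 and 2 reads in the GFP libraries and 0, 1, 3 and 2 reads in the Uninjured libraries. The count of 0 allows up to 3 reads, for counting error only. GFP replicate 3 held most of its reads, and GFP replicate 4 was within the Uninjured values in reads. In normalized reads GFP replicate 4 was just above the highest Uninjured library (2.16 against 2.07), each on 2 reads. Gpr143, the gene of a melanosomal receptor that limits organelle size, had 5, 11 and 6 reads in the GFP libraries and 3, 1, 1 and 12 in the Uninjured libraries, with the highest of the 7 in Uninjured replicate 4.

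Rpe65 lies at chr3:159599175-159625321 (plus strand). It had 25.6, 43.4, 83.9 and 66.1 normalized reads in HDAC5AA, 102, 139, 69.5 and 27.6 in HDAC5DAD, 26.5, 218 and 92.7 in GFP, and 128, 31.7, 44.7 and 171 in Uninjured libraries. All 4 groups overlapped, and each held both high and low libraries.

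Mitf (chr6:97807052-98021349, plus strand) was the steady one of the 10. It had 212, 201, 209 and 196 normalized reads in HDAC5AA, 208, 210, 232 and 188 in HDAC5DAD, 199, 202 and 195 in GFP, and 240, 184, 181 and 200 in Uninjured libraries. Its highest library was 1.33 times its lowest, against 8.51 times for Rpe65, 20.96 times for Dct and 23.2 times for Pmel.

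**Figure D1:**
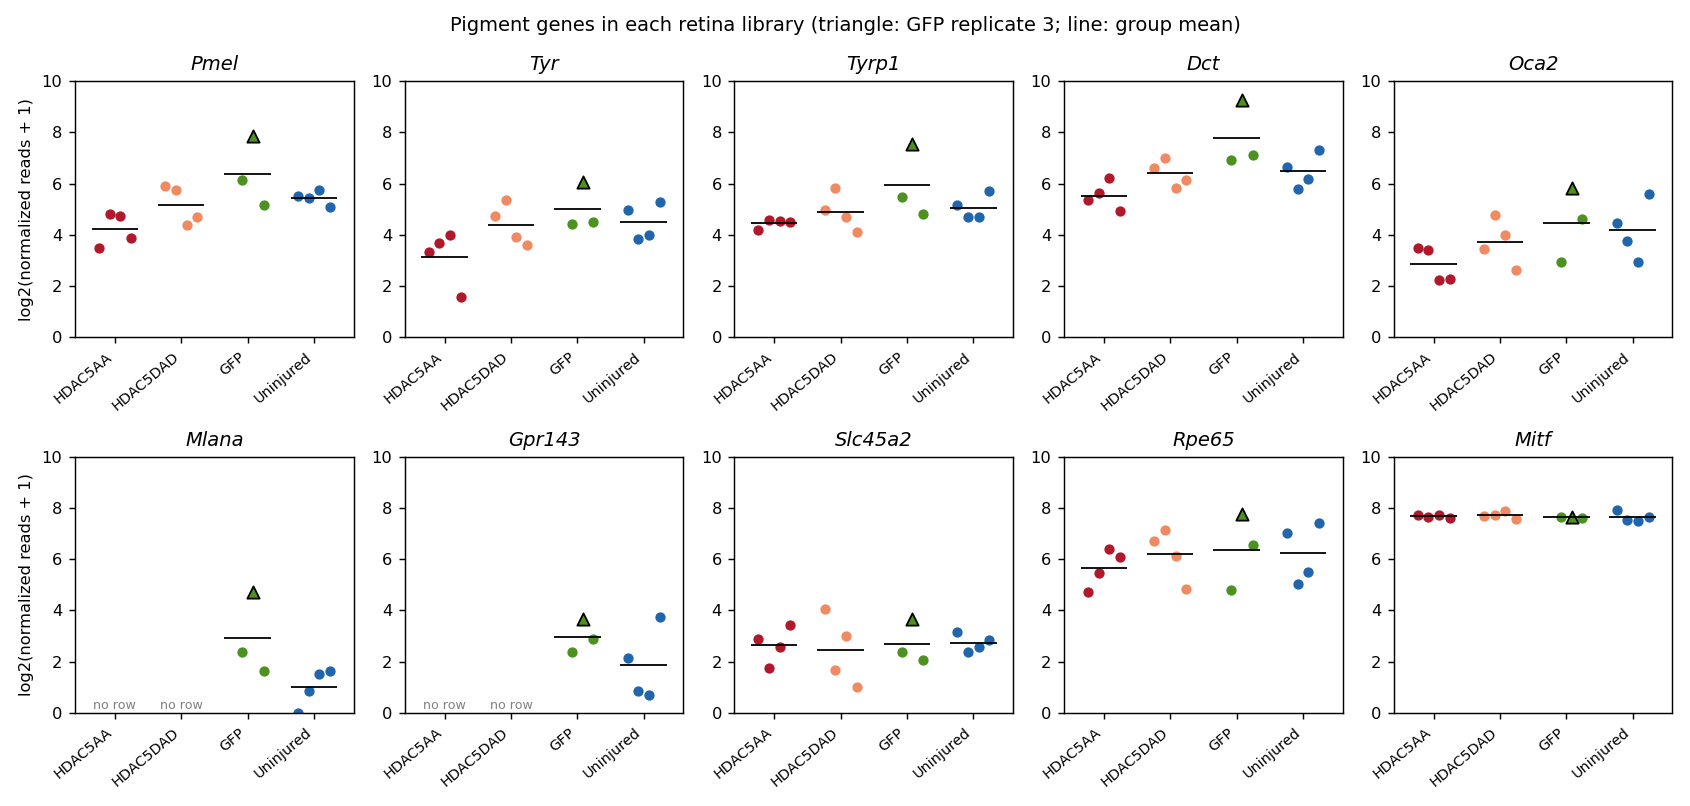
Level of each of the 10 genes in every library, as log2(normalized reads + 1); points are libraries, lines are group means and the triangle is GFP replicate 3. In 7 panels (Pmel, Tyr, Tyrp1, Dct, Oca2, Mlana and Rpe65) the triangle is the highest point, while Mitf lies flat across all 15 libraries.

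Of the 10 genes, 7 (Pmel, Tyr, Tyrp1, Dct, Oca2, Mlana and Rpe65) were highest in GFP replicate 3. Summed over Pmel, Tyr, Tyrp1, Dct, Oca2, Slc45a2 and Rpe65, that library had 74.9 RPM. The other GFP libraries, replicates 2 and 4, had 15.1 and 17.8. The sum was 6.27, 8.63, 11.8 and 6.86 RPM in HDAC5AA, 17.1, 22.9, 11.0 and 8.20 in HDAC5DAD, and 18.1, 9.33, 11.6 and 25.8 in Uninjured libraries. Outside GFP replicate 3 the highest sum was in an Uninjured library, and 6 of the 11 injured libraries lay within the Uninjured range. The 4 lowest sums were in HDAC5AA replicates 1, 2 and 4 and in HDAC5DAD replicate 4.

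GFP replicate 3 also had the highest summed level of 20 other pigment epithelium genes, at 1016 RPM. HDAC5DAD replicate 2 followed with 954, the other GFP libraries had 749 and 844, and Uninjured libraries 727 to 893. Rlbp1, which is also listed here as a Müller glia gene, had the most reads of the 20. Its mean was 7731 normalized reads in GFP and 7844 in Uninjured retinas, so the sum is not a level of pigment epithelium alone. The 11 choroid vessel and scleral genes summed to 316 RPM in GFP replicate 3, against 274 and 266 in the other GFP libraries. They summed to 235 to 260 in Uninjured libraries, and HDAC5DAD replicate 2 had more, at 323 RPM. Most of this sum was Kdr, with a mean of 4480 normalized reads in GFP retinas, against 336 for Pecam1, the next highest. In GFP replicate 3 the 5 lens genes summed to 2.13 RPM, low within a range of 1.78 to 85.4 over all libraries. Its ribosomal RNA share was 1.504%, in the middle of the 15 values. The part of each in the pigment gene levels was not tested.

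**Figure D2:**
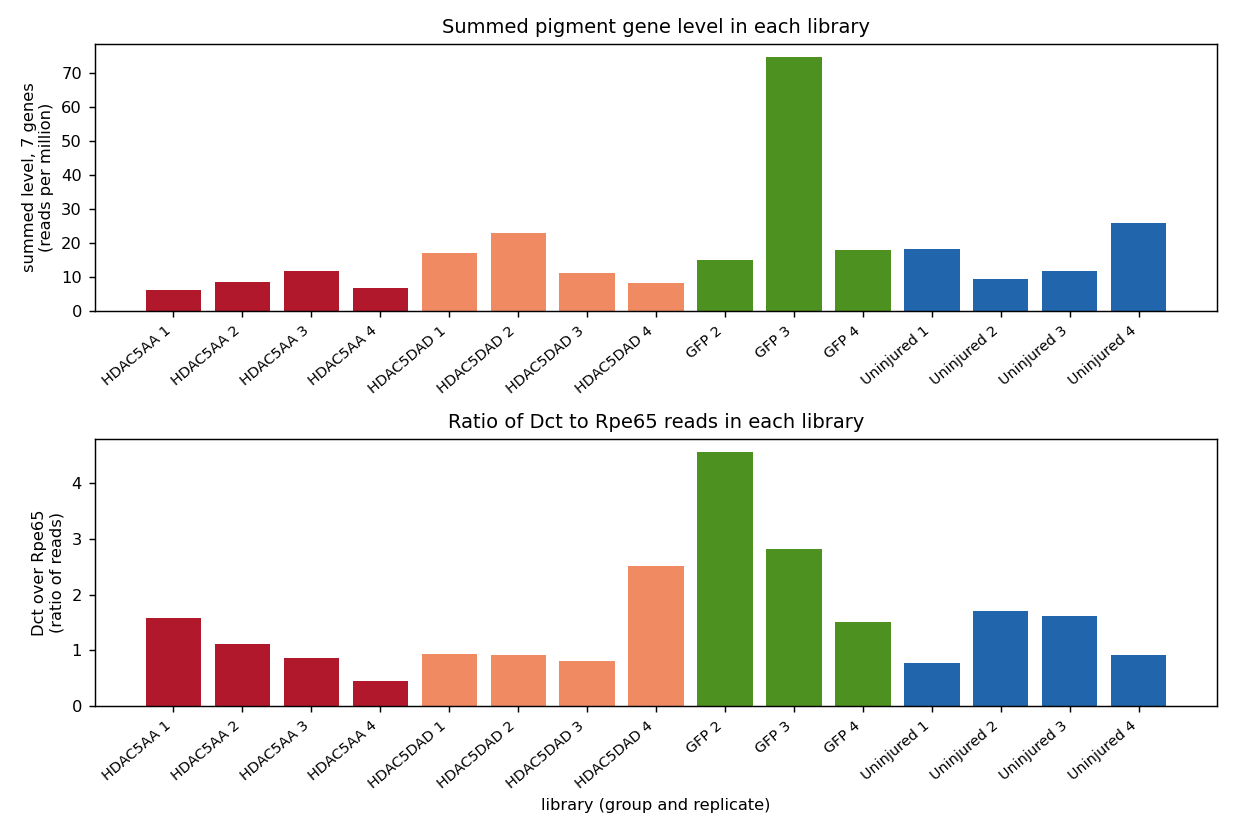
Top, summed level of the 7 genes other than Mitf that were listed in all tables, in RPM, in each library; bottom, Dct reads divided by Rpe65 reads in the same libraries. GFP replicate 3 stands apart in the sum at 74.9, whereas in the ratio GFP replicate 2 is highest at 4.56 and HDAC5AA replicate 4 lowest at 0.441.

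The pigment genes did not keep a fixed proportion to Rpe65. The ratio of Dct to Rpe65 reads was 1.57, 1.11, 0.868 and 0.441 in HDAC5AA, 0.931, 0.919, 0.813 and 2.52 in HDAC5DAD, 4.56, 2.81 and 1.5 in GFP, and 0.766, 1.71, 1.62 and 0.915 in Uninjured libraries. The ratio of Pmel to Rpe65 reads was 0.393, 0.618, 0.309 and 0.206 in HDAC5AA, 0.569, 0.376, 0.288 and 0.889 in HDAC5DAD, 2.59, 1.07 and 0.372 in GFP, and 0.351, 1.32, 1.16 and 0.194 in Uninjured libraries. Dct is known from choroidal melanocytes as well as pigment epithelium, and Rpe65 from pigment epithelium. In each of the 4 groups the library with the least Rpe65 (HDAC5AA replicate 1, HDAC5DAD replicate 4, GFP replicate 2 and Uninjured replicate 2) had the highest ratio of Dct to Rpe65; a low denominator raises a ratio by construction.

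Across the 15 libraries, pooled over groups, log2 levels of Oca2, Tyrp1, Dct and Tyr followed Rpe65. Pearson's r was 0.70 for Oca2 (permutation p = 0.00399, Benjamini-Hochberg adjusted 0.0243 over 15 relations; Spearman's rho 0.65, permutation p = 0.00963, adjusted 0.0361). It was 0.68 for Tyrp1 (permutation p = 0.00159, adjusted 0.0238; rho 0.72, permutation p = 0.00333, adjusted 0.0189). Dct and Tyr, the partners of Tyrp1 in melanin synthesis, had values close to it. It was 0.65 for Dct (permutation p = 0.00486, adjusted 0.0243; rho 0.71, permutation p = 0.00378, adjusted 0.0189). It was 0.62 for Tyr (permutation p = 0.00979, adjusted 0.0367; rho 0.83, permutation p = 0.000310, adjusted 0.00465). Without HDAC5AA replicate 1 and GFP replicate 3, the libraries farthest from the median of Rpe65, r was 0.64 for Oca2, 0.53 for Tyrp1, 0.45 for Dct and 0.48 for Tyr.

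Pmel did not pass in the same family (r = 0.47, permutation p = 0.0723, adjusted 0.181; rho 0.42, permutation p = 0.119, adjusted 0.298), and r was 0.015 without the same libraries. Mitf had r = 0.38 (permutation p = 0.162, adjusted 0.303; rho 0.33, permutation p = 0.225, adjusted 0.381) and Slc45a2 r = 0.45 (permutation p = 0.0969, adjusted 0.208; rho 0.38, permutation p = 0.166, adjusted 0.356). Among the 9 libraries with 1% or more ribosomal RNA reads, r with Rpe65 was 0.76 for Oca2, 0.60 for Tyrp1, 0.54 for Dct and 0.55 for Tyr. Among the other 6 it was 0.77 for Oca2, 0.91 for Tyrp1, 0.88 for Dct and 0.91 for Tyr. The ribosomal RNA share itself passed for none of 8 genes after adjustment over the 15 relations; its largest r was 0.50, with Rpe65 (permutation p = 0.0600, adjusted 0.180; rho 0.47, permutation p = 0.0782, adjusted 0.234), which was 0.27 without HDAC5AA replicate 1 and Uninjured replicate 2. With Rpe65 the share had r = 0.97 among the 6 libraries below 1% and -0.014 among the 9 others. With Tyr, Dct, Tyrp1, Pmel and Oca2, r of the share also differed in sign between the classes. Below 1% it was 0.96 for Tyr, 0.96 for Dct, 0.95 for Tyrp1, 0.64 for Pmel and 0.69 for Oca2. Among the 9 others it was -0.73 for Tyr, -0.70 for Dct, -0.51 for Tyrp1, -0.62 for Pmel and -0.501 for Oca2. Slc45a2 had the opposite signs, with -0.48 below 1% and 0.35 among the 9 others. The class below 1% held no GFP library, and r within a class carries no test.

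**Figure D3:**
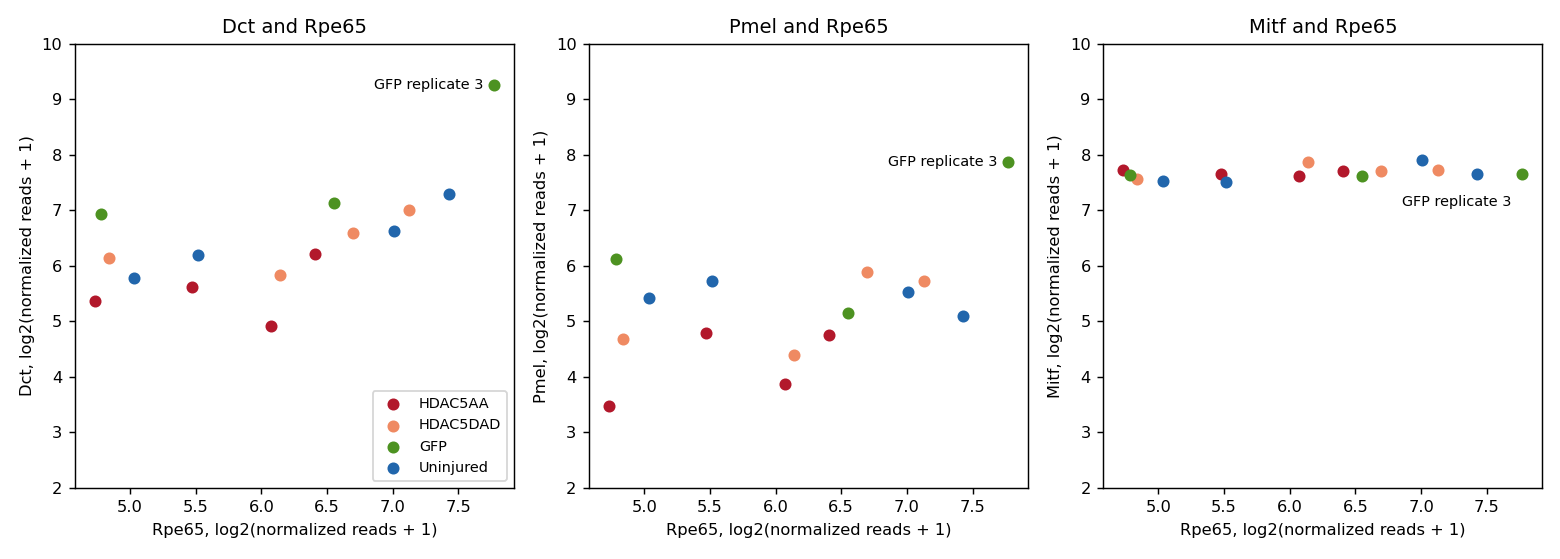
Dct, Pmel and Mitf against Rpe65 in the 15 libraries, all as log2(normalized reads + 1), with colours for groups. Dct climbs with Rpe65 (r = 0.65), Pmel does so less (r = 0.47), and Mitf stays level.

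The spread among libraries of 1 group set 6 of the genes apart from most of the transcriptome. The within-group SD on the log2 scale was 1.09 for Rpe65, 1.03 for Oca2, 0.88 for Tyr, 0.80 for Pmel, 0.76 for Tyrp1 and 0.75 for Dct, against a median of 0.13 over 17594 genes. These SDs ranked between the 99.2 and 99.7 percentiles of those genes. Mitf had an SD of 0.12, at percentile 43.5. Without GFP replicate 3 the 6 genes still ranked between percentiles 96.0 and 99.7, and Mitf was at 46.3. Low counts add to an SD, so these ranks describe the libraries and carry no test.

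In HDAC5AA retinas against Uninjured retinas, Pmel fell, and it was the only one of the 8 genes tested there to reach an adjusted p under 0.05 (called, below). Its log2 fold change was -1.22 (SE 0.27, 95% interval -1.80 to -0.64; limma adjusted p = 0.00630), or 0.429 times the Uninjured level, with 4 of 4 HDAC5AA libraries below all 4 Uninjured libraries; the libraries of Tyrp1 were likewise apart. Of all 19714 genes tested, 3.17% were called lower, 8.55% were called in either direction, and 5.53% had HDAC5AA libraries wholly below the Uninjured ones. The authors' deposited table gives a log2 fold change of -0.53 for Pmel with an adjusted p of 0.00278. Its fold changes for Tyr (-0.35) and Oca2 (-0.31) were likewise smaller in size than the limma estimates below, whereas Mitf had 0.03 in both. DESeq2 on recovered reads gave -1.15 for Pmel. The sizes of deposited and limma estimates are therefore not compared here, and the reason for the gap was not tested. Among libraries with 1% or more ribosomal RNA reads, 2 in each group, the change of Pmel was -0.999 and was no longer called (limma adjusted p = 0.167). HDAC5AA retinas had virus, crush and HDAC5AA together, whereas Uninjured retinas had no crush and no named virus. The part of each in the fall of Pmel was not tested.

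The other melanin genes had estimates below 0 in this comparison without passing. The log2 fold change was -1.36 for Tyr (SE 0.51, limma adjusted p = 0.161), -1.34 for Oca2 (SE 0.50, adjusted p = 0.148), -0.95 for Dct (SE 0.36, adjusted p = 0.194) and -0.61 for Tyrp1 (SE 0.23, adjusted p = 0.138). Rpe65 had -0.58 with a 95% interval of -2.21 to 1.06 (limma adjusted p = 0.779). Slc45a2 had -0.08 (95% interval -0.94 to 0.77) and Mitf 0.03 (95% interval -0.18 to 0.25). Estimates were negative for 7 of 8 genes, with a median of -0.78 against -0.0064 over all genes; since these genes move together from library to library, the 7 are not separate pieces of evidence. Oca2 passed when Uninjured replicate 3 was left out (-1.75, limma adjusted p = 0.0172) and among the libraries with 1% or more ribosomal RNA reads (-2.75, limma adjusted p = 0.00126), where Rpe65 also passed (-0.98, limma adjusted p = 0.00514).

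In HDAC5DAD retinas against Uninjured retinas none of the 8 genes was called by limma, edgeR or DESeq2, where 13.3% of 19956 genes were called by limma, and none had an unadjusted limma p under 0.05. Estimates ran from -0.48 for Oca2 (SE 0.61, limma adjusted p = 0.717) to 0.06 for Mitf (SE 0.10, adjusted p = 0.783). Pmel had -0.27 (SE 0.30, 95% interval -0.93 to 0.39) and Rpe65 -0.05 (SE 0.75, 95% interval -1.88 to 1.78). The median was -0.14, against -0.0070 over all genes. Among the libraries with 1% or more ribosomal RNA reads, 2 in each group, Oca2 passed (-1.99, limma adjusted p = 0.00402).

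In GFP retinas against Uninjured retinas none of the 10 genes was called by limma, edgeR or DESeq2. Limma called 11.4% of all 19961 genes, and 1 of the 10, Mlana, had an unadjusted limma p under 0.05. In every comparison a gene without an adjusted p in edgeR or DESeq2 counted as not called. The authors' deposited DESeq2 results give no p-value for Dct and Mlana in GFP, and no adjusted p for Gpr143 and Slc45a2. Mlana had the largest estimate, 1.95 (SE 0.68, 95% interval 0.53 to 3.37; limma adjusted p = 0.0731). It was followed by Dct at 1.29 (SE 0.72, limma adjusted p = 0.380), Gpr143 at 1.13 (SE 0.66, adjusted p = 0.336), Pmel at 0.94 (SE 0.67, adjusted p = 0.495) and Tyrp1 at 0.88 (SE 0.73, adjusted p = 0.562). Tyr had 0.49, Oca2 0.28, Rpe65 0.12, Mitf -0.01 and Slc45a2 -0.04. The median of the 10 estimates was 0.69, against 0.0067 over all genes and 0.026 without GFP replicate 3, so most of it rested on 1 library. Mlana passed without GFP replicate 4 (2.59, limma adjusted p = 0.0235) and Gpr143 without Uninjured replicate 4 (1.77, limma adjusted p = 0.0450), both on few reads.

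**Figure D4:**
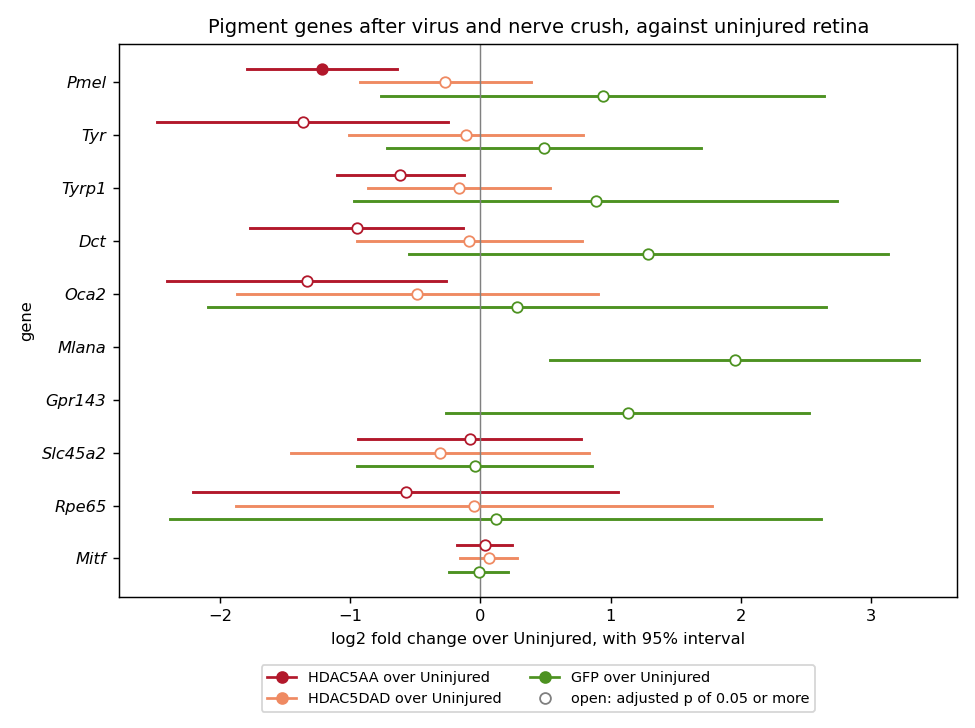
Log2 fold change over Uninjured retinas for each gene in HDAC5AA, HDAC5DAD and GFP retinas, with 95% intervals from limma; filled points have an adjusted p under 0.05 and open points do not. Pmel in HDAC5AA retinas, at -1.22, is the only filled point, and all 3 comparisons share the same Uninjured libraries.

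Between injured retinas, HDAC5AA against GFP gave the widest gaps. Dct had a log2 fold change of -2.25 (SE 0.57, 95% interval -3.50 to -0.99; limma adjusted p = 0.737), Pmel -2.16 (SE 0.60, adjusted p = 0.737), Tyr -1.86 (SE 0.63, adjusted p = 0.738), Oca2 -1.62 (SE 0.75, adjusted p = 0.756) and Tyrp1 -1.50 (SE 0.56, adjusted p = 0.738). All 5 had an unadjusted p under 0.05, but over 19495 genes limma called none (0%), with 1284 genes under an unadjusted 0.05, and edgeR and DESeq2 called 0 as well. Rpe65 had -0.70 (95% interval -2.52 to 1.12) and Mitf 0.04 (95% interval -0.17 to 0.25). Pmel, Tyr, Tyrp1 and Dct had every HDAC5AA library below every GFP library, as had 3.68% of all genes. The median of the 8 genes was -1.56, and -0.82 without GFP replicate 3.

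In HDAC5DAD against GFP, limma called none of the 8 genes and none of 19495 (0%; 2238 had an unadjusted p under 0.05, edgeR called 0 and DESeq2 57, none of them among the 8). Dct had -1.38 (SE 0.57, limma adjusted p = 0.412) and Pmel -1.21 (SE 0.60, adjusted p = 0.460); the median of the 8 was -0.68, and -0.073 without GFP replicate 3. In HDAC5AA against HDAC5DAD, limma called none of the 8 and 2 of all genes (0.0103%; 1322 had an unadjusted p under 0.05, edgeR called 0 and DESeq2 6). Tyr had -1.26 (SE 0.59, limma adjusted p = 0.736), Pmel -0.95 (SE 0.55, 95% interval -2.16 to 0.25; adjusted p = 0.784) and Mitf -0.03 (SE 0.10, 95% interval -0.23 to 0.16). The fall of Pmel in HDAC5AA retinas against Uninjured retinas was thus not shown to differ from its estimate in HDAC5DAD retinas.

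Group means followed 1 order for Pmel, Tyr, Tyrp1, Dct, Oca2 and Rpe65, with HDAC5AA lowest, then HDAC5DAD, then Uninjured, and GFP highest. For Dct the means were 47.6 ± 18.5 normalized reads in HDAC5AA (SD, n = 4), 87.3 ± 31.4 in HDAC5DAD (n = 4), 290 ± 278 in GFP (n = 3) and 95.3 ± 44.6 in Uninjured retinas (n = 4). For Rpe65 they were 54.8 ± 25.5 in HDAC5AA, 84.6 ± 47.4 in HDAC5DAD, 112 ± 97.1 in GFP and 93.9 ± 66.8 in Uninjured retinas. For both genes HDAC5DAD and Uninjured differed by less than the SD of either group. The GFP means were raised by replicate 3: over GFP replicates 2 and 4 alone they were 21.1 normalized reads for Tyr, 15.2 for Oca2 and 59.6 for Rpe65, below the Uninjured means, so the order held without replicate 3 for Pmel, Tyrp1 and Dct only. Mitf did not follow this order, with 205 ± 7.002 in HDAC5AA, 210 ± 17.8 in HDAC5DAD, 198 ± 3.35 in GFP and 201 ± 27.0 in Uninjured retinas.

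Genes whose library-to-library pattern was closest to the 7 pigment genes were found by the Pearson correlation with their mean log2 level after subtracting group means, over 15 libraries and 14408 candidate genes with at least 10 normalized reads on average. The 15 closest were Sfrp1 (0.948), Fgfr2 (0.940), Mfrp (0.934), Ptgds (0.930), Cpxm2 (0.921), Tgfbr3 (0.918), Ttr (0.907), Cldn1 (0.899), Bmp6 (0.898), Bace2 (0.898), Pifo (0.886), Col8a1 (0.884), Rdh5 (0.884), Slc39a12 (0.881) and Car12 (0.879). Ttr (transthyretin, a carrier of thyroxine) and Rdh5 (11-cis-retinol dehydrogenase of the visual cycle) were on the list of pigment epithelium genes, and Bace2, a protease that cleaves PMEL, was on the melanosome list. Mfrp is a membrane protein of pigment epithelium and ciliary epithelium, Ptgds makes prostaglandin D2, Cldn1 is a tight junction protein and Car12 a carbonic anhydrase.

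Ttr shows the pattern at higher counts. It had 288, 468, 682 and 399 normalized reads in HDAC5AA, 977, 1074, 589 and 383 in HDAC5DAD, 282, 2235 and 937 in GFP, and 1004, 337, 368 and 1386 in Uninjured libraries. The high and low libraries of each group were largely those of Rpe65. Without GFP replicate 3, Cldn1 (0.910), Ermn (0.905), Fgfr2 (0.898), Cpxm2 (0.898) and Sfrp1 (0.892) ranked first, and Lrat, the enzyme that supplies RPE65 with its substrate, ranked 9 (0.876). These correlations describe shared highs and lows and carry no test.

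Measured against the mean of the other pigment genes in the same way, Dct had a correlation of 0.886, Tyrp1 0.880, Rpe65 0.796, Tyr 0.754, Oca2 0.659, Pmel 0.595 and Mitf 0.412. Without GFP replicate 3 Pmel dropped to 0.246, whereas Dct kept 0.771, Tyrp1 0.757 and Rpe65 0.753. Pmel, the gene that passed in HDAC5AA retinas, was the one of these 7 genes with the lowest correlation once GFP replicate 3 was set aside. These 7 include Mitf and leave out Slc45a2, for which no such correlation is given.

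**Figure D5:**
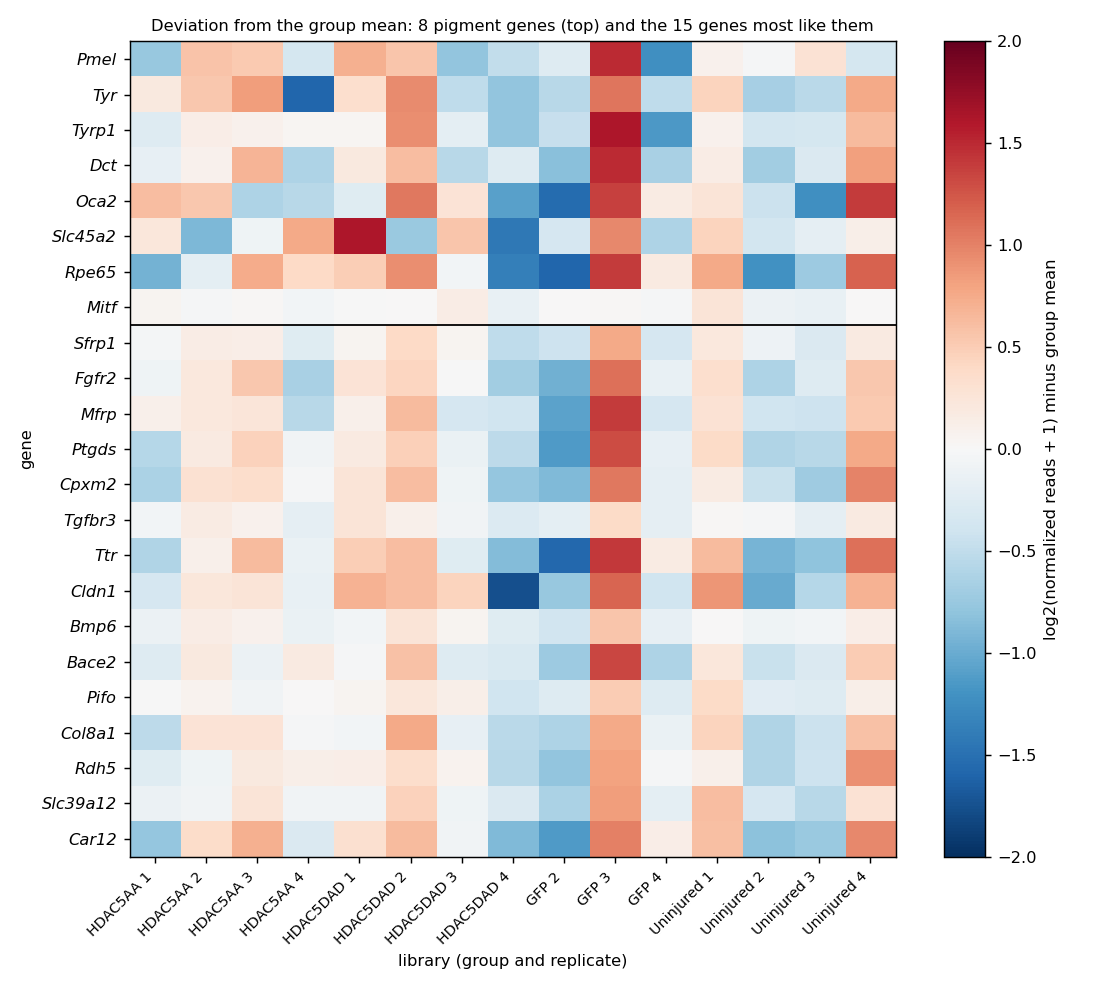
Deviation of each library from its group mean, as log2(normalized reads + 1), for 8 pigment genes (above the line) and the 15 genes most like them (below it); red is above and blue below the group mean. GFP replicate 3 and Uninjured replicate 4 are red in most rows, GFP replicate 2, HDAC5DAD replicate 4 and Uninjured replicate 2 are blue in most, and the Mitf row is nearly blank.

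Of 21 further pigment epithelium genes outside melanin synthesis, 20 were tested. HDAC5AA retinas had 2 higher and 0 lower than Uninjured ones, HDAC5DAD retinas 4 higher and 0 lower, and GFP retinas 4 higher and 0 lower (2 higher without GFP replicate 3), where limma called 5.38%, 7.8% and 5.57% of all genes higher in the 3 comparisons. Mertk, a receptor for the uptake of photoreceptor debris, rose by 0.47 in HDAC5AA (limma adjusted p = 0.00211), 0.52 in HDAC5DAD (adjusted p = 0.000221) and 0.45 in GFP (adjusted p = 0.00224). Cdh3, P-cadherin, rose by 0.79 in HDAC5DAD and 1.01 in GFP, and Krt18, an epithelial keratin, by 0.44 and 0.21 in the same comparisons (limma adjusted p = 0.0182, 0.0205, 0.000375 and 0.0445). Without GFP replicate 3 neither was called in GFP (limma adjusted p = 0.163 for Cdh3 and 0.201 for Krt18). Mertk is also known from other retinal cells and was not among the 15 genes closest to the pigment genes. The visual cycle gene Lrat had 59.0 ± 26.4 normalized reads in HDAC5AA, 87.2 ± 46.7 in HDAC5DAD, 147 ± 111 in GFP and 114 ± 109 in Uninjured retinas, a spread like that of Rpe65.

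Of 31 genes of melanosome biogenesis and transport, 30 were tested. HDAC5AA retinas had 2 higher and 0 lower, HDAC5DAD retinas 3 higher and 1 lower, and GFP retinas 2 higher and 1 lower. Of all genes, limma called 5.38%, 7.8% and 5.57% higher and 3.17%, 5.47% and 5.83% lower in the same order. Gpnmb, a PMEL-like glycoprotein of melanosomes that macrophages also make, rose by 1.72 in HDAC5AA (limma adjusted p = 8.16e-06), 1.95 in HDAC5DAD (adjusted p = 1.56e-06) and 2.42 in GFP (adjusted p = 0.0115). It had 233 ± 34.5 normalized reads in HDAC5AA (SD, n = 4), 275 ± 44.3 in HDAC5DAD (n = 4), 405 ± 197 in GFP (n = 3) and 71.6 ± 20.2 in Uninjured retinas (n = 4). Slc7a11, the cystine exchanger that feeds pheomelanin synthesis and glutathione in many cells, rose by 1.07 in HDAC5AA (limma adjusted p = 3.59e-06), 1.40 in HDAC5DAD (adjusted p = 2.03e-07) and 1.27 in GFP (adjusted p = 2.34e-06). Rab32, a trafficking GTPase, rose in HDAC5DAD by 1.09 (limma adjusted p = 0.00719), and the motor gene Myo5a fell by 0.27 in HDAC5DAD and by 0.24 in GFP (limma adjusted p = 0.00207 and 0.00774). All 6 of 6 microglia and macrophage markers rose in each of the 3 comparisons, and their summed level was 78.7 to 134 RPM in HDAC5AA, 88.6 to 128 in HDAC5DAD, 66.0 to 101 in GFP and 26.6 to 31.9 in Uninjured libraries; its part in the rise of Gpnmb was not tested.

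Of 16 relatives of MITF and genes of the pigment cell lineage, 13 were tested. HDAC5AA retinas had 3 higher and 1 lower, HDAC5DAD retinas 3 higher and 3 lower, and GFP retinas 2 higher and 2 lower (1 lower without GFP replicate 3), where limma called 5.38%, 7.8% and 5.57% of all genes higher and 3.17%, 5.47% and 5.83% lower in the 3 comparisons. Sox9, a factor of pigment epithelium and Müller glia, rose by 0.53 in HDAC5AA, 0.42 in HDAC5DAD and 0.70 in GFP (limma adjusted p = 0.0103, 0.0354 and 0.00142). Kitl, the ligand of the KIT receptor of melanocytes, rose by 0.31, 0.35 and 0.34 in the same order (limma adjusted p = 0.0176, 0.0102 and 0.0152), and Ednrb, an endothelin receptor, by 0.41 in HDAC5AA and 0.47 in HDAC5DAD (limma adjusted p = 0.0344 and 0.00770). Pax6, an eye-field factor, fell by 0.24 in HDAC5AA, 0.26 in HDAC5DAD and 0.29 in GFP (limma adjusted p = 0.00806, 0.00141 and 0.00833); without GFP replicate 3 it was not called in GFP (-0.21, limma adjusted p = 0.0601). Kit fell by 0.44 in HDAC5DAD (limma adjusted p = 0.0238), and Trpm1, which is also a bipolar cell gene, fell by 0.20 in HDAC5DAD and by 0.22 in GFP (limma adjusted p = 0.0138 and 0.0101). Most of these genes are made by other retinal cells as well.

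Markers of neighbouring tissues (choroid, sclera, ciliary body, iris and lens) gave few calls, and markers of retinal cells follow them. Against Uninjured, limma called 5.38% of all genes higher and 3.17% lower in HDAC5AA. The shares were 7.8% and 5.47% in HDAC5DAD, and 5.57% and 5.83% in GFP. Of 11 choroid vessel and scleral genes tested, Pecam1 rose in HDAC5AA (0.28), Plvap (0.49) and Col3a1 (1.18) in HDAC5DAD, and Col3a1 in GFP (0.97), the last not without GFP replicate 3. Of 4 ciliary body and iris genes, Optc fell in HDAC5DAD by 0.90. Of 5 lens genes, Cryba1 rose in HDAC5AA (1.56). Among retinal cells, Müller glia had 2 of 6 genes higher and 1 lower in HDAC5AA, 3 and 1 in HDAC5DAD, and 1 and 1 in GFP. Retinal ganglion cell markers fell in 5 of 6 genes in each of the 3 comparisons, rod genes in 0 of 6 in HDAC5AA, 1 in HDAC5DAD and 2 in GFP, and bipolar cell genes in 0 of 4, 1 and 2. Without GFP replicate 3, 1 rod gene and 1 ciliary body or iris gene fell in GFP. In the 3 comparisons between injured groups, limma called no gene of any of these lists. The 3 comparisons with Uninjured share the same Uninjured libraries.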

How the data were processed

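Whole-retina RNA was depleted of ribosomal RNA and sequenced as single 50-base reads, per the labels' protocols. Reads were aligned to mm10 with STAR, counted with HTSeq and analysed with DESeq2, per the submitters' processing notes; versions and the strand setting are not given in the sources used here. The deposited signal values are counts divided by a size factor, in 3 tables that each pair 1 injured group with the same Uninjured libraries. All values (100%) came out as whole reads within 0.01 of a read, and the Uninjured reads recovered from the tables were equal for every shared gene. GFP replicate 1, the remaining one of 16 labelled samples, was not analysed here.

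The deposited log2 fold changes and p-values of the authors' tables were read for the 10 genes only. Symbols came from the tables and, for 861 genes, from GENCODE M21, which matched 20190 of 20278 gene IDs.

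Against Uninjured, log2(value + 1) of genes with a mean of at least 1 was tested in each table with limma 3.58.1 (R 4.3.3; trend, robust, Benjamini-Hochberg over all genes, threshold 0.05). Injured groups were compared in 1 fit of 4 groups on the recovered reads, with median-of-ratios scaling. The fold change understates the change of low genes. The design assumed counts; since values were already normalized, edgeR 4.0.16 and DESeq2 1.42.0 were run on recovered reads as alternatives, beside TMM scaling, pseudocounts of 0.1 and 5, no filter, a mean of at least 10, a replicate block, libraries with at least 1% ribosomal RNA reads, the 2 groups alone, and each library left out. Fits without GFP replicate 3 for lists and likeness were added after seeing the data. Tests were tried on simulated data, but no outcome is reported here, so this gives no error rate for the pigment genes. Genes per kilobase used GENCODE exon lengths.

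The 10 genes and all lists were chosen with earlier results of these data known. Named genes were all 10, up to 4 called genes per list and comparison, and the 15 most correlated genes; 1 called gene of the pigment epithelium list is counted but not reported here. Intervals cover 95%.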

Additional observations from a re-analysis of the deposited data

Results flagged for a closer look

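In 26 sets of 4 libraries (8 genes in 3 groups, and 2 genes in Uninjured retinas alone), no library's gap to the next one passed Dixon's 95% limit, which chance passes in about 1 of 20 sets. The GFP group, with 3 libraries, was not examined in this way.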

How the results depend on the processing

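Of 50 values for single pigment genes, 1 was called. Under settings other than leaving out a library, 438 of 458 values kept their direction and were not seen to change side of the threshold. Values without an adjusted p are counted among these if their direction held. Of the others, 16 turned direction, 3 became called and 1 lost its call. Leaving out a library kept 332 of 374, while 39 turned direction and 3 became called. The call of Pmel in HDAC5AA retinas never turned direction: edgeR gave -1.15 (adjusted p = 0.00581), DESeq2 -1.15 (adjusted p = 0.00324), leaving out a library -1.41 to -0.97 (limma adjusted p = 0.00148 to 0.0304), and the libraries where ribosomal RNA took 1% of reads or more -0.999 (adjusted p = 0.167). No scaling moved the median of all genes by more than 0.1 on the log2 scale. The cause of a change was not tested; fewer samples entered the ribosomal RNA and leave-out fits.

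In the libraries where ribosomal RNA took 1% of reads or more, HDAC5AA against Uninjured gave 863 calls (1685 with all libraries), of which 2 were pigment genes, HDAC5DAD against Uninjured 1 pigment gene, HDAC5AA against GFP 1 call, HDAC5DAD against GFP 13 and HDAC5AA against HDAC5DAD 10. Values that turned direction there were, in GFP against Uninjured, Tyr -0.11, Oca2 -0.55 and Rpe65 -0.85; Mitf -0.11 in HDAC5AA and -0.15 in HDAC5DAD against Uninjured; Slc45a2 0.29 in HDAC5AA against GFP; Mitf -0.0045 in HDAC5DAD against GFP; and Rpe65 0.47 and Mitf 0.033 in HDAC5AA against HDAC5DAD. DESeq2 turned Slc45a2 to 0.13 in GFP and 0.075 in HDAC5DAD against Uninjured and to -0.13 in HDAC5AA against HDAC5DAD, edgeR turned Tyr to 0.026 in HDAC5DAD against Uninjured, and a pseudocount of 5 turned Slc45a2 to 0.0025 in GFP against Uninjured. HDAC5DAD against GFP had 57 calls with DESeq2 and 11 with the 2 groups alone. HDAC5AA against HDAC5DAD had 6 calls with DESeq2 and 0 with edgeR, TMM scaling, a pseudocount of 0.1, a mean of at least 10 or the replicate block.

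Deviations of same-numbered libraries had correlations of -0.18 to 0.24. With no reference values for unpaired libraries, these cannot decide whether the numbers pair the libraries. The replicate block gave 1771 calls in HDAC5AA, 2356 in HDAC5DAD and 1633 in GFP against Uninjured and 0 in each comparison of injured groups; it turned Slc45a2 to 0.10 and Mitf to 0.073 in GFP against Uninjured and changed no call of a pigment gene (Pmel in HDAC5AA -1.22, adjusted p = 0.00152).

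Leaving out a library, calls ranged from 1390 to 1647 in HDAC5AA, 2052 to 2617 in HDAC5DAD and 1594 to 2274 in GFP against Uninjured, and from 0 to 0, 0 to 2 and 0 to 5 in HDAC5AA against GFP, HDAC5DAD against GFP and HDAC5AA against HDAC5DAD; pigment genes called ranged from 1 to 2 in HDAC5AA and 0 to 1 in GFP against Uninjured. Ranges that crossed 0 were, in HDAC5AA against Uninjured, Slc45a2 -0.34 to 0.22 and Mitf -0.014 to 0.12; in HDAC5DAD against Uninjured, Tyr -0.43 to 0.15, Tyrp1 -0.48 to 0.10, Dct -0.31 to 0.19, Slc45a2 -0.86 to 0.17 and Rpe65 -0.45 to 0.41; in GFP against Uninjured, Tyr -0.044 to 0.77, Oca2 -0.41 to 1.05, Slc45a2 -0.53 to 0.27, Rpe65 -0.59 to 0.91 and Mitf -0.060 to 0.073; in HDAC5AA against GFP, Slc45a2 -0.36 to 0.44 and Rpe65 -1.49 to 0.0054; in HDAC5DAD against GFP, Slc45a2 -0.80 to 0.22 and Rpe65 -0.96 to 0.53; and in HDAC5AA against HDAC5DAD, Slc45a2 -0.26 to 0.76 and Mitf -0.082 to 0.018. Depth limits Slc45a2, with 1 to 11 reads per library, as well as Mlana and Gpr143.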
